A study of Mus musculus with 6 samples.

Results

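The wide E2A regions are the stretches of mouse chromatin where the 3 longest peak lists of an E2A ChIP-seq series each placed a peak of at least 1200 bp. They were found by taking every wt replicate 3 peak of 1200 bp or more that overlapped, by at least 1 bp, a peak of 1200 bp or more in the E12KO list and another in the E47KO list. This gave 1184 regions, 4.89% of the 24194 peaks of wt replicate 3 and 58.5% of its 2025 peaks of that width. The regions were selected on their widths in these 3 lists, so those widths are a description here and support nothing. Wt replicates 1 and 2 played no part in the choice.

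Chromatin was precipitated with an antibody against E2A from neural stem cells cultured from E12.5 embryos of strain C57BL/6J and grown under proliferation conditions with 20 ng/ml of both FGF-2 and EGF. Wild-type cells gave 3 ChIP libraries (wt replicates 1, 2 and 3), cells labelled E12 KO gave 1 (E12KO) and cells labelled E47 KO gave 1 (E47KO). Fixation was the same throughout, 20 min in 1.5 mM EGS followed by 10 min in 1% formaldehyde, and a wild-type input library was not analysed here. Whether the wt libraries came from separate embryos or cultures is not stated in the labels, and no drug or other treatment was given to any group. Each knockout has 1 library, so knockout values carry no replicate error and no test between genotypes was made. Peak positions carry no expression values, so neither the knockout labels nor the labelled cell type could be checked from these lists.

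E2A is the product of Tcf3, and alternative splicing gives its E12 and E47 forms. These class I basic helix-loop-helix (bHLH) proteins pair with tissue-specific bHLH factors, such as the proneural proteins of neural progenitors, and bind E-boxes (CANNTG). Id proteins pair with them and keep them off DNA, and Notch effectors of the Hes family oppose the proneural factors, which keeps neural stem cells undifferentiated. A transcription factor bound at a single site usually gives a narrow peak, set largely by the fragment length, and a wider peak is a stretch over which neighbouring signal was joined.

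The promoter sequences shown are those of 6 genes whose start sites lie in wide regions and on which the results below turn. Jun and Fos encode AP-1 subunits, and Lfng (a glycosyltransferase that modifies Notch receptors) and Hes5 (a Notch effector) belong to the Notch pathway. Bcan (brevican, an extracellular matrix proteoglycan of the brain) and Mllt11 stand for the regions with high and with no wt replicate 1 signal. Each sequence holds the 250 bases upstream of the RefSeq start site in build GRCm38.p6, written 5′ to 3′ on the gene's strand, with every CANNTG match in capitals. They come from chr4:95052223-95052472 (minus strand) for Jun, chr12:85473640-85473889 (plus) for Fos and chr5:140607091-140607340 (plus) for Lfng. The others are chr4:154960673-154960922 (plus) for Hes5, chr3:88000357-88000606 (minus) for Bcan and chr3:95228678-95228927 (minus) for Mllt11.
Jun: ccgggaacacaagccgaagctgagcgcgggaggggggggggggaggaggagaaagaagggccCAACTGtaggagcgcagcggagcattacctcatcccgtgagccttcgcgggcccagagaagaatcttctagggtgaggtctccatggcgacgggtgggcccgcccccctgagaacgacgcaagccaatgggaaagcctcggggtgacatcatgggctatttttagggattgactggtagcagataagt
Fos: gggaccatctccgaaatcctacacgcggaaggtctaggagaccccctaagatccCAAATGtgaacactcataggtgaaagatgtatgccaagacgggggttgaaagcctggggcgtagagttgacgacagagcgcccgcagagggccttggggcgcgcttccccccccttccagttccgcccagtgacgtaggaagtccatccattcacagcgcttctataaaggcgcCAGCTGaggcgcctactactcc
Lfng: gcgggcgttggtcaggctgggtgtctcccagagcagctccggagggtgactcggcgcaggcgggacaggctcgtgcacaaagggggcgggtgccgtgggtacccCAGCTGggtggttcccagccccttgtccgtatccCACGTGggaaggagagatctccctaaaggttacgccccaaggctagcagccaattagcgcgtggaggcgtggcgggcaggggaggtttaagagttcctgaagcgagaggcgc
Hes5: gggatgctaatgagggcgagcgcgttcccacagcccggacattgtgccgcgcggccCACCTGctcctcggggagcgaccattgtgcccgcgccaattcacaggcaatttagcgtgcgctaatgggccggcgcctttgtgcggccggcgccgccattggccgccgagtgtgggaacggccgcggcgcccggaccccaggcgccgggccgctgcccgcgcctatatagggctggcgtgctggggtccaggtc
Bcan: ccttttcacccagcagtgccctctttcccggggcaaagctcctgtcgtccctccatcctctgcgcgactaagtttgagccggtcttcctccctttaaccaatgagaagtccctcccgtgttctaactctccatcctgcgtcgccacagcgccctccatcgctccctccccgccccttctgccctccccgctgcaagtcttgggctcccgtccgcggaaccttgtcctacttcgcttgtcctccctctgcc
Mllt11: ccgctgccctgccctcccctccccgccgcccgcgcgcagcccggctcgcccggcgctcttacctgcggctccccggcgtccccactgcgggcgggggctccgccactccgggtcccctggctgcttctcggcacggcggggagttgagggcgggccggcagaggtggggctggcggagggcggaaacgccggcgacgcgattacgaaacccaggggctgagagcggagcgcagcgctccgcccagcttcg

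Jun had 1 match, CAACTG, Fos had CAAATG and CAGCTG, Lfng had CAGCTG and CACGTG, and Hes5 had CACCTG. Bcan and Mllt11 had no CANNTG within these 250 bases, which says only that the letters are not in this window. The Hes5 and Mllt11 windows held 32 and 35 CpG dinucleotides, and the other 4 windows held 15 to 18. The peaks are given in mm9 and the sequences in GRCm38.p6. Positions were not converted between builds, so whether the RefSeq start site is the one the peak annotation used was not checked.

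Peaks of 1200 bp or more were rare in the shorter lists and common in the longer ones. Wt replicate 1 had 70 among 6814 peaks (1.03%) and wt replicate 2 had 299 among 12772 (2.34%). Wt replicate 3 had 2025 (8.37%), E12KO had 3207 among 25229 (12.7%) and E47KO had 1897 among 22176 (8.55%). Median peak widths over whole lists were 432.5, 420 and 549 bp in wt replicates 1, 2 and 3, 616 bp in E12KO and 550 bp in E47KO. The share of wide peaks therefore spread farther among the 3 wt lists than between either knockout and wt replicate 3. The lists give no read totals, so sequencing depth is unknown.

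The widest region was intergenic, at -2956 bp from the start site of Ttc34 (negative distances are upstream), at chr4:154214767-154227353. All positions of regions are in mm9. It measured 12587 bp in wt replicate 3, 12513 in E12KO, 12622 in E47KO and 12356 in wt replicate 2, while wt replicate 1 had no peak there. Whether repeated or mis-assembled sequence of the mm9 build lies there was not analysed here, since neither the input library nor an mm9 genome was used. Of the 12 regions that stayed widest in the narrowest of the 3 long lists, 9 were promoters. The region of Mir9-1, a gene for the brain-enriched microRNA miR-9, was the next (chr3:88031434-88037434), with 6001 bp in wt replicate 3, 8516 in E12KO and 4551 in E47KO. At Erf, which encodes an ETS-family repressor (chr7:26031274-26037259), the widths were 5986, 5943 and 4388 bp in the same order. Only these 3 and Jun reached 4000 bp in all 3 long lists, 19 regions reached 3000 bp and 129 reached 2000 bp.

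The Jun promoter region (chr4:94716616-94720794) was 4179 bp wide in wt replicate 3, 4079 in E12KO and 4225 in E47KO. The shorter lists placed separate peaks within it. Wt replicate 2 had 3 peaks, the widest 1759 bp, and wt replicate 1 had 1 peak of 336 bp between -1672 and -1337 bp from the start site. At Lfng (chr5:141084383-141088264) the region was 3882 bp in wt replicate 3, 5796 in E12KO and 3909 in E47KO. Wt replicate 1 had 3 peaks inside the Lfng region, of up to 798 bp, and wt replicate 2 had 3, of up to 1371 bp. The wider E12KO peak there took in a separate wt replicate 3 peak of 778 bp upstream. Brd2, which encodes a BET bromodomain protein (chr17:34255973-34259826), had 3854, 4830 and 4729 bp, with 2 peaks in wt replicate 1 and 3 in wt replicate 2.

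Hes1, a Notch effector, showed the same joining of neighbouring peaks. Its promoter region measured 2933 bp in wt replicate 3, 4734 in E12KO and 3005 in E47KO. In wt replicate 3 an 807 bp peak downstream of the Hes1 start site was listed apart, and in E12KO the peak ran through it, from -2562 to 2171 bp. Bcan, named after its values were seen, had the same form: 3193 bp in wt replicate 3 beside a separate 702 bp peak, against 4709 bp in E12KO and 4601 bp in E47KO. At Ccnd1, the gene for cyclin D1, it was E47KO that had the long peak, 4005 bp against 2972 in wt replicate 3 and 2872 in E12KO. In these 4 examples the wider peak of 1 list stood where another list had neighbouring peaks, so a width there depends on where a list divided them.

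**Figure D1:**
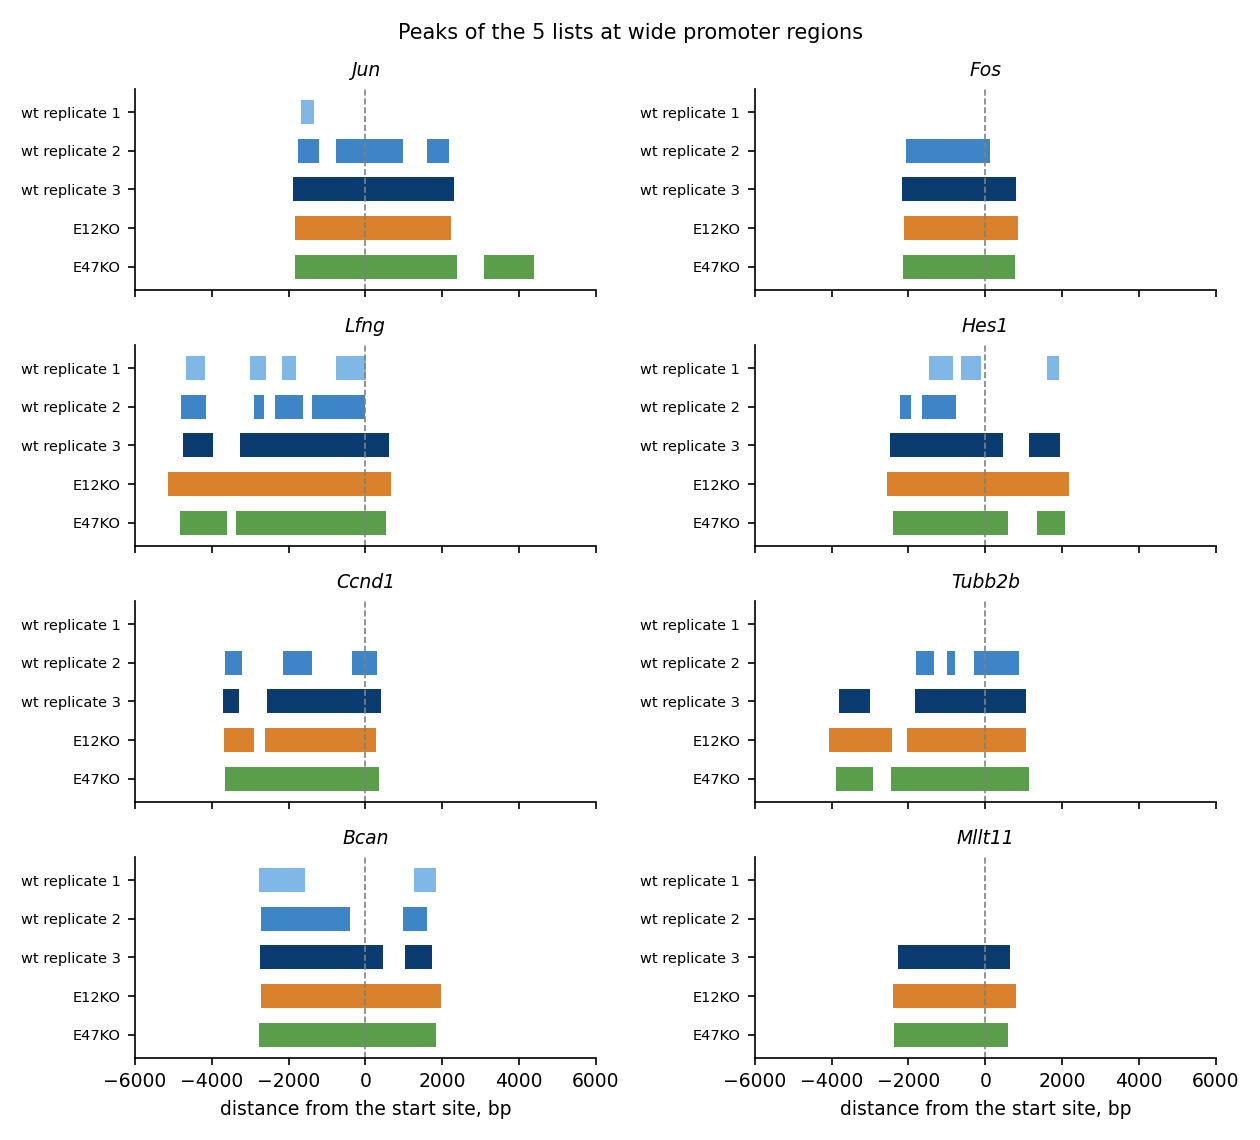
Peaks of the 5 lists around the start sites of Jun, Fos, Lfng, Hes1, Ccnd1, Tubb2b, Bcan and Mllt11; the x axis is distance from the start site in bp, with the direction of transcription to the right, and each bar is 1 peak. The 3 long lists carry a peak of at least 2872 bp across each start site, whereas wt replicate 2 carries shorter peaks at all but Mllt11, and wt replicate 1 has none at Fos, Ccnd1, Tubb2b and Mllt11.

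Over all 1184 regions the median width was 1569.5 bp in wt replicate 3 (quartiles 1376.5 and 1892), 1714 bp in E12KO (1478.5 and 2087.5) and 1548 bp in E47KO (1373 and 1877). Relative to wt replicate 3, the median ratio was 1.06 in E12KO and 0.995 in E47KO. The same ratios over all overlapping peaks were 1.09 (20276 peaks) and 0.974 (18501 peaks). The rule required 1200 bp in each list, which narrows the ratios it leaves, and nothing is read from them. A region was wider in E12KO than in wt replicate 3 in 780 cases and narrower in 401. For E47KO the counts were 568 and 614. Changes over 1.5 times were few: E12KO was that much wider at 95 regions and narrower at 13, and E47KO was wider at 44 and narrower at 48.

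The positions of the edges in the 3 long lists are a description too, since the rule required overlapping wide peaks in each. The same distances were not taken for other peaks. The median distance between the wt replicate 3 and E12KO edges was 100 bp at the start and 115 bp at the end, and for E47KO it was 101.5 and 103 bp. The stretch common to the widest overlapping peaks of all 3 lists had a median of 1363 bp, 91.4% of the wt replicate 3 width. It fell under 1200 bp in 203 regions, and in 4 regions the 3 widest peaks had no base in common. Some knockout peaks spanned more than 1 region: 16 regions shared their widest E12KO peak with another region, and 16 shared their widest E47KO peak. Conversely, 28 regions held at least 2 E12KO peaks and 43 held at least 2 E47KO peaks.

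**Figure D2:**
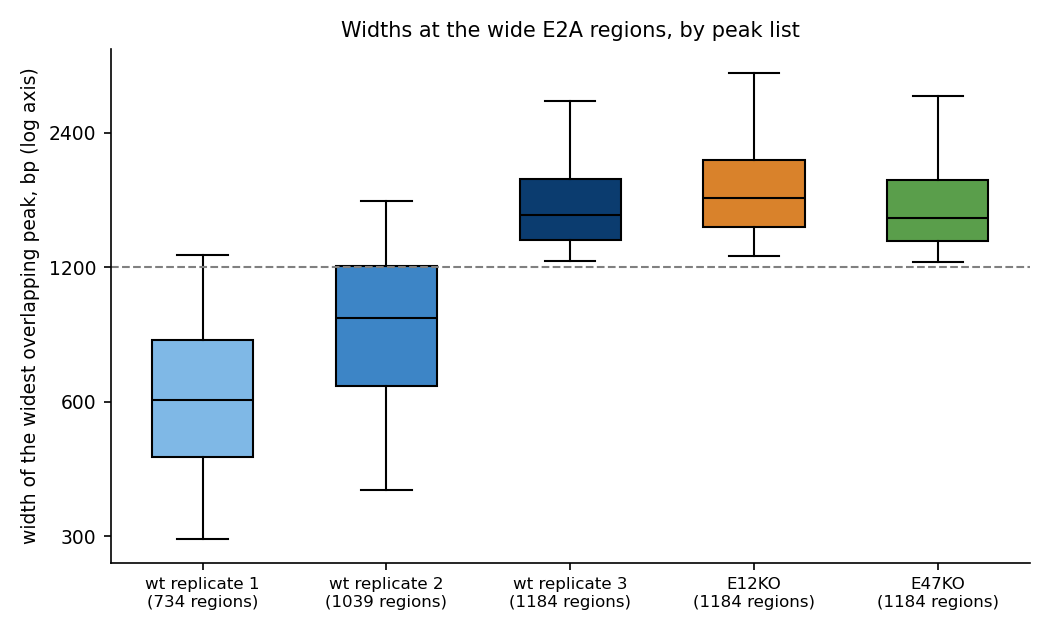
Width in bp, on a log axis, of the widest peak of each list that overlaps a wide region, over the regions with such a peak; boxes span the quartiles with the median as a line, whiskers run from the 5th to the 95th percentile, and the dashed line marks 1200 bp. In wide regions the widest wt replicate 1 and 2 peaks have medians of 603.5 and 922 bp, below the 1548 to 1714 bp of the 3 long lists.

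The width minimum cut through a continuous range. Just inside it stood regions of 1200 bp at Syn3 (synapsin III) and Ier3 and of 1202 bp at Upp2. Just outside stood wt replicate 3 peaks of 1199 bp at Zfp184, 1199 bp at Nxph1 and 1198 bp at Trim8, each wide in both knockouts. In all, 444 wt replicate 3 peaks under 1200 bp overlapped wide peaks in both knockouts. Of the 841 wide wt replicate 3 peaks left out, 443 were also wide in E12KO alone, 100 in E47KO alone and 298 in neither knockout. Just 10 of the 841 had no peak of any width in either knockout.

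Wide regions lay at promoters more often than peaks in general. The authors' annotation placed 532 of the 1184 at a promoter, that is, within 1 kb of a start site, which is 44.9% (95% Wilson interval 42.1 to 47.8, counting error only) against 24.9% of all wt replicate 3 peaks. Among the 16148 wt replicate 3 peaks with a peak in both knockouts that were not wide in all 3, the share was 22.7% (22.1 to 23.4). The start site itself was covered by 470 regions (39.7%), against 18.5% of all wt replicate 3 peaks. A wide peak has more chance of meeting either measure, and neither share was adjusted for width. Intergenic regions numbered 312 (26.4% against 34.2% of all peaks) and intronic ones 248 (20.9% against 34.6%). Exons held 47, 3′UTRs 18, 5′UTRs 10 and the stretch just downstream of genes 17. The 841 wide wt replicate 3 peaks left out had a promoter share of 51.6% (48.2 to 55.0). Of these, 443 were wide in E12KO and 100 in E47KO. A high promoter share was thus also seen in wide wt replicate 3 peaks that were not wide in both knockouts.

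**Figure D3:**
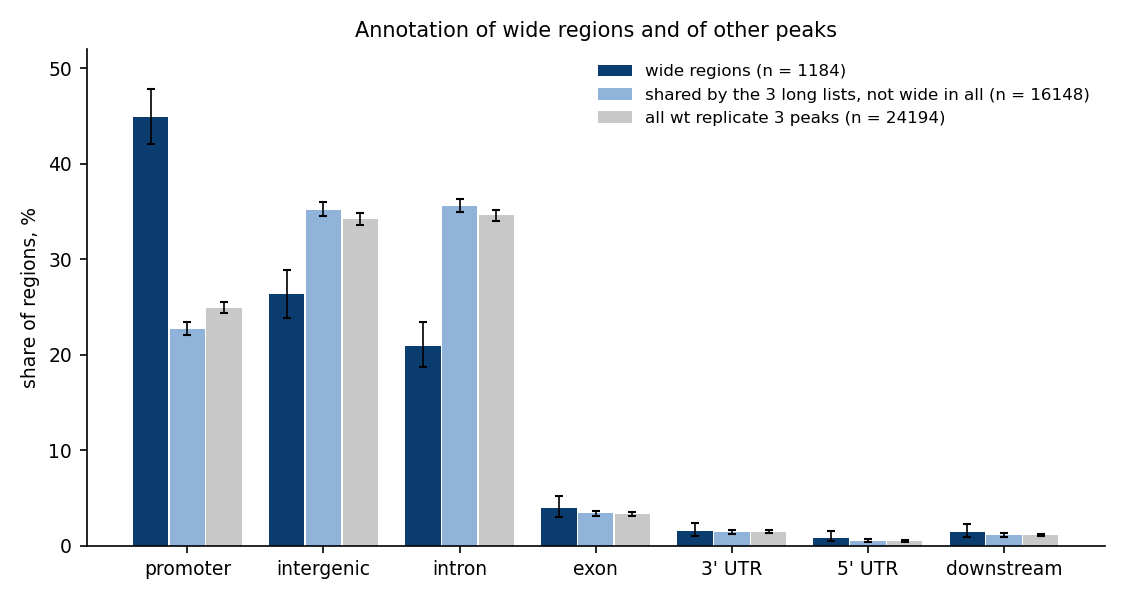
Share in percent of peaks in each annotation class, for the wide regions, the shared peaks not wide in all 3 long lists and all wt replicate 3 peaks. Bars start at 0 and lines are 95% Wilson intervals. Promoters make up 44.9% of the wide regions, 22.7% of the shared peaks not wide in all 3 and 24.9% of all wt replicate 3 peaks.

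Promoter regions had widths close to those of the rest. Their median wt replicate 3 width was 1630 bp, beside 1537.5 bp for intergenic, 1514 bp for intronic and 1699 bp for exonic regions. Intergenic wide regions lay a median of 44816 bp from the nearest start site and intronic ones 22994.5 bp. By chromosome, 126 regions (10.6%) were on chromosome 11, which held 7.07% of all wt replicate 3 peaks. Chromosome X had 6 regions (0.507%, 0.232 to 1.10) against 2.07% of all peaks.

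The narrower peaks of wt replicates 1 and 2 fell inside most wide regions. A wt replicate 2 peak overlapped 1039 of the 1184 (87.8%, 85.8 to 89.5). The share was 45.6% of all wt replicate 3 peaks and 58.5% of the shared peaks not wide in all 3 long lists. A wt replicate 1 peak overlapped 734 (62.0%, 59.2 to 64.7), against 22.7% and 26.4%. At least 1 of these lists had a peak in 1093 regions (92.3%, 90.7 to 93.7), against 50.8% of all wt replicate 3 peaks, and both had one in 680. The wide wt replicate 3 peaks left out by the knockout condition had lower shares, 68.8% with wt replicate 2 and 41.6% with wt replicate 1. A longer interval overlaps more peaks by construction, and these shares were not adjusted for width.

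Peaks of the shorter lists covered only a portion of each region. The widest wt replicate 1 peak per region had a median of 603.5 bp (range 280 to 2207), and wt replicate 1 peaks covered a median of 40.2% of the 734 regions that had one. For wt replicate 2 the widest peak had a median of 922 bp (range 192 to 12356), and its peaks covered a median of 61.7% of 1039 regions. Peak by peak, the medians in wide regions were 577.5 bp in wt replicate 1 and 835 bp in wt replicate 2. Over the whole lists they were 432.5 and 420 bp. A wider peak has more chance of overlapping a region, and these widths were not adjusted for that. A wt replicate 1 peak of 1200 bp or more was found in 56 regions and a wt replicate 2 peak of that width in 263. Most wide peaks of the short lists were in these regions: 56 of the 70 of wt replicate 1 (80.0%) and 265 of the 299 of wt replicate 2 (88.6%). Over all peaks of these lists the shares were 12.4% and 9.51%.

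Several separate peaks inside 1 wide region were the minority. Wt replicate 1 had 1 peak in 628 regions, 2 in 100 and 3 in 6, and wt replicate 2 had 1 peak in 875, 2 in 153, 3 in 10 and 4 in 1. Gaps between neighbouring peaks of a region had medians of 334 bp in wt replicate 1 and 329.5 bp in wt replicate 2. Where both lists had a peak, in 680 regions, a wt replicate 1 peak overlapped a wt replicate 2 peak in 653 (96.0%, 94.3 to 97.3). Peaks of these widths leave little room to miss each other inside a region, so nothing is read from that share. The most divided regions were those of Erf (3 peaks in wt replicate 1 and 4 in wt replicate 2), Lfng and the endolysosomal cation channel gene Tpcn1 (3 and 3). They were followed by Mir9-1 (2 and 3) and a region named for E130114P18Rik (3 and 2).

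Promoter regions had a peak in the shorter lists less often than the other wide regions did. Wt replicate 1 had a peak in 260 of 532 promoter regions (48.9%, 44.6 to 53.1) and in 474 of the 652 others (72.7%). The share was 74.0% in intergenic, 73.4% in intronic and 76.6% in exonic regions. For wt replicate 2 it was 78.9% (75.3 to 82.2) at promoters and 94.9% elsewhere. The promoter share was the lower in every width class used. Between 1200 and 1399 bp it was 36.7% (28.9 to 45.3) at promoters and 66.3% (59.7 to 72.4) elsewhere for wt replicate 1, and at 2200 bp or more 70.3% (60.8 to 78.3) and 88.1% (77.5 to 94.1). For wt replicate 2 the corresponding values were 75.0% and 93.8%, then 87.1% (79.2 to 92.3) and 93.2% (83.8 to 97.3). At 2200 bp or more the intervals at promoters and elsewhere overlapped in both lists. The narrower shared peaks had the same order, with 20.1% at promoters, 27.9% in intergenic and 28.2% in intronic peaks for wt replicate 1. The deposited label for the false discovery rate of the wt replicate 1 list differs from that of the other 4, and its part in these shares was not tested.

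**Figure D4:**
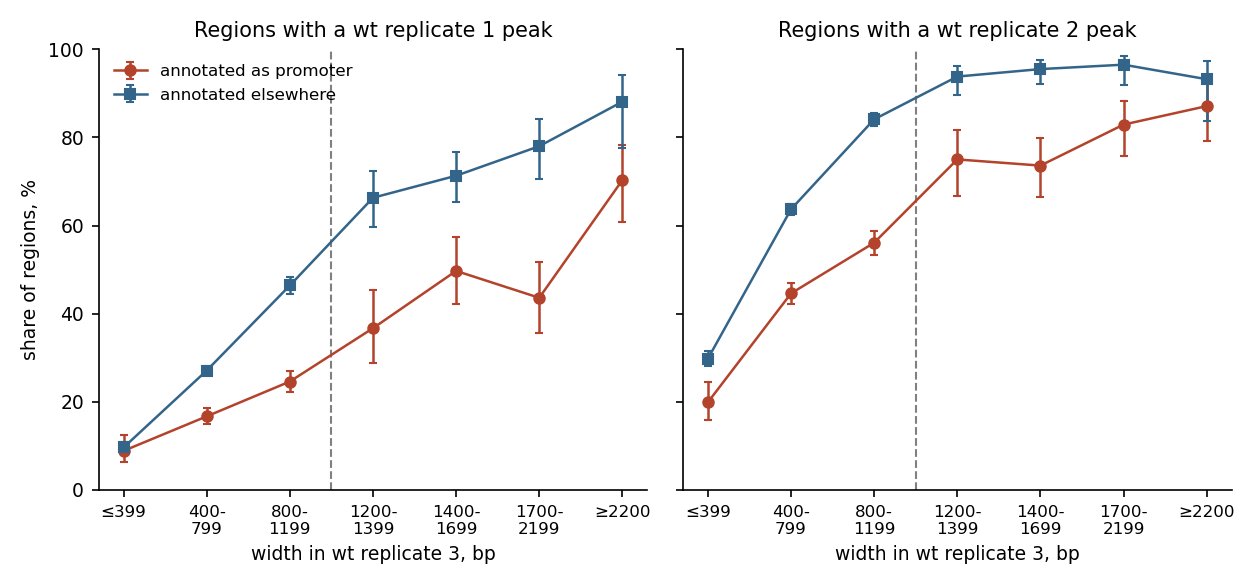
Share in percent of wt replicate 3 peaks with a wt replicate 1 peak (left) or a wt replicate 2 peak (right). Peaks are grouped by wt replicate 3 width in bp, at promoters and elsewhere, with 95% Wilson intervals. Left of the dashed line are shared peaks under 1200 bp in wt replicate 3, and right of it the wide regions. The promoter points lie below the others on both sides of 1200 bp, 36.7% against 66.3% for wt replicate 1 in the narrowest class of wide regions.

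Regions with no peak in wt replicate 1 or 2 numbered 91, and 70 of them were promoters (76.9%, 67.3 to 84.4). Their median wt replicate 3 width was 1445 bp, and the widest were those of Epo (erythropoietin; 2962 bp in wt replicate 3, 2131 in E12KO, 1628 in E47KO) and Mllt11 (2922, 3204 and 2979). The Npas3 promoter (a bHLH-PAS factor) had 2887, 2881 and 2773 bp. Next came Mir1931 (2359, 2555 and 1507) and a stretch downstream of the long non-coding RNA gene Malat1 (2271, 2217 and 1499). At Epo, Mir1931 and Malat1 the width differed between the long lists by over 1.5 times, while at Mllt11 and Npas3 it was nearly equal.

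The 470 regions over a start site extended to both sides of it to a similar extent. They reached a median of 835.5 bp upstream and 845 bp downstream, and 236 reached farther upstream against 234 farther downstream. The wt replicate 3 peak covered the position 500 bp upstream in 76.6% of them and the position 500 bp downstream in 76.8%. Wt replicate 2 covered these positions in 35.1% and 21.7%, and wt replicate 1 in 16.4% and 7.02%, so the peaks of the short lists lay more to the upstream side. Their coverage was highest 150 bp upstream, at 53.4% in wt replicate 2 and 26.4% in wt replicate 1. Of the 221 start-site regions with a wt replicate 1 peak, the summit of the strongest peak was upstream in 137 and downstream in 84, and its median position was -105 bp. E12KO and E47KO covered the position 500 bp upstream in 79.1% and 76.2% and the position 500 bp downstream in 78.1% and 73.4%. These regions were chosen for a wt replicate 3 peak over the start site and a wide peak in both knockouts. Nothing is therefore read from the form in the 3 long lists.

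**Figure D5:**
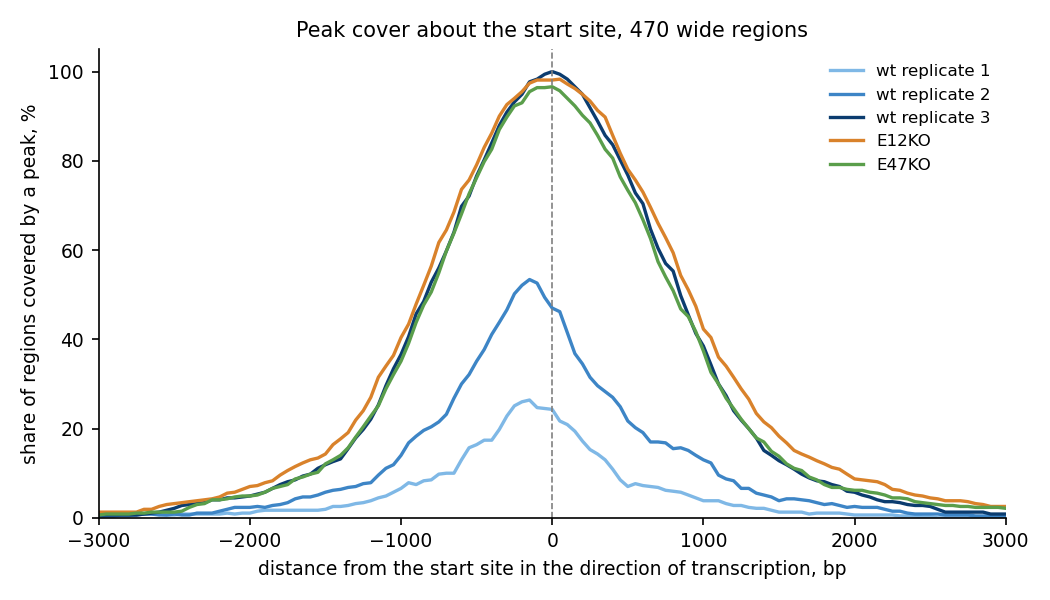
Percent of the 470 wide regions over a start site in which each list had a peak, by distance from the start site in bp (upstream negative), 1 line per list. The 3 long lists, on which the regions were chosen, fall off on both sides of the start site. Wt replicates 1 and 2, not used in the choice, peak 150 bp upstream, at 26.4% and 53.4%.

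The 250 bases upstream of the start sites in wide regions were rich in CpG and held CANNTG less often than promoters at large. Of the 465 genes with such a region, 248 were protein-coding with exactly 1 entry in the RefSeq promoter table (GRCm38.p6), and these are described. Their windows held a median of 21 CpG and 66.4% G or C. The median was 18 CpG for the 1635 genes under a shared peak not wide in all 3 long lists. Over all 14731 genes with 1 entry the medians were 9 CpG and 54.8%. CANNTG, searched on both strands, was found in 48.8% of the wide windows (42.6 to 55.0), in 55.8% under those other shared peaks and in 63.1% of all. CAGCTG was found in 14.1% (10.3 to 19.0), 14.4% and 11.5% of the same groups. CAGGTG, or CACCTG on the other strand, was found in 11.7% (8.27 to 16.3), 13.2% and 16.5%; both are forms of CANNTG. Windows with a wt replicate 1 peak over the region held CANNTG in 47.7% (109 genes) and those without in 49.6% (139 genes). The shares were not adjusted for G and C content, which differed between the groups. These windows are a small part of each region, and sequence farther from the start site was not analysed here.

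Only the wt replicate 1 list gives a strength per peak, the authors' fold enrichment over the peak caller's background. Within that list, the highest fold per wide region had a median of 9.42 (quartiles 6.41 and 16.7, range 3.22 to 106, 734 regions). Peak by peak, the 846 peaks in wide regions had a median of 8.64 and all 6814 peaks of the list one of 7.48. A highest fold above the list's per-peak upper quartile of 10.9 was seen in 309 regions and one below its median in 260. A region with several peaks counts here by its strongest. Wide regions thus ranged from weak to strong peaks. Promoter regions had a median of 7.48, intergenic ones 10.4, intronic ones 10.9 and exonic ones 12.6. Of the 100 strongest wt replicate 1 peaks, 34 lay in a wide region, as did 846 of all 6814 (12.4%). The rank correlation between the fold and the narrowest of the 3 widths was 0.0306 across the 734 regions, which share a library and span only the widths that the rule kept. With the width minimum at 1000, 1200 and 1500 bp the median fold was 8.91, 9.42 and 10.1. No test was made.

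The strongest peak of wt replicate 1 lay in an intergenic wide region at -47549 bp from Gng13 (a G protein gamma subunit gene; chr17:25804218-25806568), with a fold of 106. That region was 2351 bp wide in wt replicate 3, 1270 in E12KO and 2051 in E47KO. An exonic region at -105119 bp from Pabpc6, its nearest gene in the annotation (chr17:9967688-9970163), had a fold of 104. Its widths were 2476, 2415 and 2417 bp. Folds of 74.3, 71.3, 70.6 and 68.7 followed. They belonged to an intron of Dgkg at -68968 bp from the start site of Etv5 (an ETS activator), an intronic region 18086 bp from that of Atoh8 (a bHLH factor), and the promoters of Ssbp2 (a cofactor of LIM-homeodomain complexes) and Glis2 (a zinc-finger factor). The Hes5 promoter (chr4:154334220-154335512) had 58.8-fold and was 1293, 1534 and 1307 bp wide. At Olig1, whose bHLH product acts in the oligodendrocyte lineage, the wider of 2 regions, intergenic and 33951 bp from the start site, had 58.3-fold and 2660, 3101 and 2889 bp. Next were an intergenic region at -8762 bp from Ntsr2 (58.0) and the Exosc9 promoter (56.3). Of the 12 regions that were widest in their narrowest long list, 9 had a wt replicate 1 peak. Jun (5.27-fold) and Erf (7.11-fold) were below the median of the list, and the other 7 ran from 7.79 at Zfp608 to 43.8 at Hivep2.

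The 1184 regions were annotated to 986 genes, 9.93% of the 9932 genes named for any wt replicate 3 peak; 3 regions had no symbol. A single region was found at 836 genes and at least 2 at 150. Among the genes with most, Gse1 had 5 of its 24 wt replicate 3 peaks, of 1460 to 2662 bp, and Sept9 had 5 of 20, of 1341 to 2211 bp. Pabpc6, Tex14 and the zinc-finger gene Zfp608 had 4 each. All 3 wt replicate 3 peaks named for Crlf2 were wide, whereas Zfp608 had 4 of 43. A gene is the nearest one in the authors' annotation, and long genes with many peaks have more chances to hold a wide one.

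For each gene list, the share is given over its members with a wt replicate 3 peak, beside the 9.93% over all such genes. Notch pathway genes had a wide region in 8 of 26 cases, each within 10 kb of the start site, and 22 of the 26 had a wt replicate 3 peak (36.4%, beside 9.93%). The receptor gene Notch1 had 3, the widest in an exon at 3170 bp in wt replicate 3, 2982 in E12KO and 1926 in E47KO, with a fold of 23.3 in wt replicate 1. The ligand gene Dll1 had 1 at its promoter (2270, 3204 and 2007 bp) and 1 upstream (2401, 2335 and 1602 bp). Of the effectors, Hes1 had 2 and Hes5, Hes6 and Heyl 1 each. The Hes6 region was 2057, 1887 and 1751 bp wide, with a fold of 31.5. Lfng and Nrarp, a feedback inhibitor of Notch signalling, were the other members. So the regions covered receptor, ligand, modifier and effector genes, and all 8 genes had at least 1 wt replicate 1 peak in a wide region.

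E protein and Id genes had 2 of 7, all 7 with a wt replicate 3 peak (28.6%, beside 9.93%). Tcf4, which encodes an E protein, had 3 regions, and the one at a promoter was 2465 bp in wt replicate 3, 2297 in E12KO, 2448 in E47KO and 2284 in wt replicate 2. Id3 had 1, at -2671 bp from the start site, of 1383, 1254 and 1343 bp with a fold of 34.7. Among proneural bHLH and related genes, 3 of 15 had one, among them Olig1 and Olig2, and 9 had a wt replicate 3 peak (33.3%, beside 9.93%). The wider of 2 Olig2 regions, intergenic and at -32259 bp, was 2088, 2356 and 2168 bp wide, with a fold of 34.5.

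Neural stem cell marker genes had a wide region in 9 of 20 cases, 7 of them within 10 kb of the start site, and 19 had a wt replicate 3 peak (47.4%, beside 9.93%). The SoxB1 factor gene Sox2 had 3, and its promoter region was 2224 bp in wt replicate 3, 2303 in E12KO, 2105 in E47KO and 1147 in wt replicate 2, with no wt replicate 1 peak. Sox1 had 2688, 2906 and 1362 bp at its promoter. Nes, the gene of the filament protein nestin, had a region of 3117, 2501 and 1956 bp 9618 bp downstream of its start site. Fabp7 (a fatty-acid-binding protein of radial glia) had 1990, 1784 and 1816 bp. The others were Cdh2, Lhx2, Msi2, Notch1 and Sox9.

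Cell cycle drivers had 5 of 22, 4 of them within 10 kb, with 17 genes under a wt replicate 3 peak (29.4%, beside 9.93%). Cell cycle exit genes had 4 of 19, 3 within 10 kb, with 14 such genes (28.6%). Ccnd1, E2f1 and Myc had promoter regions with a wt replicate 2 peak and none in wt replicate 1, and E2f3 and Mki67 had peaks in both, the Mki67 region lying at -330125 bp from the start site. Gadd45g, a growth arrest gene and a known proneural target, had 3 regions; the promoter one was 2652, 3360 and 2648 bp wide with a fold of 18.9. Gadd45b, Btg1 and Btg2 made up the rest. Chromatin regulator genes had 8 of 24, 6 within 10 kb, with 22 genes under a wt replicate 3 peak (36.4%). They included Brd2 (a bromodomain protein), Arid1a and Smarca2 (SWI/SNF subunits), Chd7 (a remodeller), Ep300 (an acetyltransferase), Kdm6b (a histone demethylase) and Jmjd1c. The Ep300 promoter region was 1360 bp in wt replicate 3, 1484 in E12KO and 1439 in E47KO, with a fold of 7.11.

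Housekeeping genes, listed for comparison, had 5 of 18, with 15 genes under a wt replicate 3 peak (33.3%, beside 9.93%), among them Actb, Ywhaz, Hsp90ab1 and Polr2a. The Notch pathway and chromatin regulator lists each had 36.4%, so a share well above 9.93% was not particular to them. The Actb promoter region (β-actin) was 2661, 2668 and 2427 bp wide, with a 1532 bp peak in wt replicate 2 and none in wt replicate 1. Ribosomal protein genes had 1 of 26, with 13 under a wt replicate 3 peak (7.69%), an intergenic region 87506 bp from Rps24. Markers of other cell types had none: 0 of 12 endothelial, 0 of 13 microglial and 0 of 14 mural and fibroblast genes, of which only 6, 1 and 7 had any wt replicate 3 peak. At 9.93% of so few genes a count of 0 is near the background, and nothing is read from it. The lists share a few members, and no enrichment test was made.

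Immediate early genes were counted after their names had been seen among the widest regions, so the count supports nothing. They had 12 of 26, 10 of them within 10 kb of the start site, with 25 under a wt replicate 3 peak (48.0%, beside 9.93%). The Fos promoter (chr12:86812694-86815661) was 2968 bp in wt replicate 3, 2959 in E12KO, 2912 in E47KO and 2205 in wt replicate 2, without a wt replicate 1 peak. Jund had 2899, 2856 and 3033 bp and Egr1 had 2951, 2143 and 2482 bp, with folds of 6.28 and 5.88. Among promoter regions of this list with a wt replicate 1 peak, the fold ran from 5.27 at Jun to 11.2 at Fosl2, on either side of the list's median of 7.48. Atf3, Dusp1, Fosb, Ier2, Ier3, Klf10 and Nr4a3 completed the 12.

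Wide regions also stood side by side. Where gaps of up to 10 kb were allowed, 148 regions formed 69 stretches with at least 2, and 10 stretches had 3. Around Mir9-1 the 3 regions spanned chr3:88024433-88037434, and a single E12KO peak of 8516 bp ran across a pair of them. Mir9-2, another gene for miR-9, had 2 regions beside 1 at C130071C03Rik on chromosome 13. At Kdm6b a 3320 bp E47KO peak joined regions that wt replicate 3 listed at 1495 and 1519 bp. At Traf4 both knockouts had 1 peak (4285 bp in E12KO and 4030 bp in E47KO) over wt replicate 3 regions of 1291 and 2408 bp.

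Genes for cytokine receptor subunits formed a further set, named after their values were seen. Csf2ra (chr19:61300854-61304675) had 3822 bp in wt replicate 3, 4048 in E12KO and 3910 in E47KO. Il3ra had an exonic region (chr14:15183814-15187712) of 3899, 4304 and 3685 bp and a promoter region of 3117, 4711 and 3118 bp. Crlf2 had 3, of 1702 to 1891 bp in wt replicate 3. All 6 regions had a wt replicate 2 peak, and none had a wt replicate 1 peak. The Ttc34 region likewise had a wt replicate 2 peak and no wt replicate 1 peak. As for Ttc34, whether these regions lie in repeated or mis-assembled mm9 sequence was not analysed here, so their widths are given only as the lists hold them.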

How the data were processed

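The authors deposited 1 annotated peak list per ChIP library, with positions in mm9, a width, an annotation class, the nearest gene and its distance, per the file headers. The tools were MACS2 2.1.0, BWA 0.7.13 and Picard 1.119, per the submitters' processing notes, with settings not given in the sources used here. Only the deposited wt replicate 1 table holds scores per peak: pileup signal (coverage at the summit), −log10 p and −log10 q, and a fold enrichment (ratio to the caller's background), used here only within that list. Its lowest −log10 q was 2.07, and no such value is at hand for the rest.

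Overlaps of at least 1 bp were computed in Python 3.11.15 with pandas 2.3.3 and numpy 2.4.6, and were checked on simulated intervals. Where several knockout peaks overlapped a region, the widest was used. Shares have 95% Wilson intervals, from scipy 1.17.1, which cover counting error only and say nothing of the spread between samples. Figures were drawn with matplotlib 3.10.9. Groups came from the labels. No test was made, because the regions were chosen on these libraries and each knockout has 1. Promoter sequences came from the RefSeq promoter table of GRCm38.p6.

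The members, the 12 gene lists (216 entries) and the rule for named genes were chosen with earlier results of these data known. Named were the 12 regions widest in their narrowest long list, the 10 with the highest fold, the 5 with most short-list peaks, the 5 widest with none, 3 on either side of the width minimum, the 15 genes with most regions and up to 4 members per list; other names were chosen after their values were seen. A few genes named by this rule are not reported here. Alternatives covered the width minimum, the overlap, the anchor list and single replicates.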

Additional observations from a re-analysis of the deposited data

How the results depend on the processing

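The number of wide regions followed the width minimum, 2094 at 1000 bp and 461 at 1500 bp. The 4 counts under other rules were 1180 with an overlap of 50% of the shorter peak, 1180 and 1181 when counted from E12KO or E47KO peaks, and 1539 without wt replicate 3. At minimums of 1000 and 1500 bp the share with a wt replicate 1 peak was 56.2% and 69.6%, at promoters 42.3% and 56.6% and elsewhere 66.9% and 81.7%. The share with a wt replicate 2 peak was 85.5% and 91.8%, at promoters 75.1% and 86.4%. At 1500 bp the promoter share was 47.9% and wt replicate 2 had a peak in 96.7% of the regions elsewhere. Promoters had the lower share at every minimum run. Keeping only wt replicate 1 peaks with −log10 q of at least 10 gave 47.04%. Leaving out wt replicate 1 or 2, the share with a peak in the other ranged from 62.0% to 87.8%. Counting every peak of a region in place of the strongest or widest gave a median fold of 8.64 and median widths of 577.5 bp in wt replicate 1 and 835 bp in wt replicate 2. In all, 18 settings, those 4 counts among them, stayed within their intervals, or within 1.5 times for counts, and 20 moved outside. These totals leave out the gene lists. Among the 18, taking promoters by distance within 1 kb gave the same 532 regions, because it restates the annotation. Counting from the deposited position-only peak lists again gave 1184. These settings add nothing to the others. Within 10 kb of the start site no ribosomal protein gene had a wide region. No paired analysis was possible because each knockout has 1 library and no test was made. Depth is unknown, so how far it limits peak width was not tested.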
